A study of Homo sapiens with 6 samples.

Results

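Lipoprotein lipase (LPL) and 7 genes that mature, anchor, inhibit or work beside it were followed in MDA-MB-231 cells exposed to selamectin. The 8 genes were chosen by symbol: LPL, LMF1, GPIHBP1, ANGPTL4, VLDLR, CD36, PNPLA2 and LIPE. Each was represented by 1 transcript cluster, the group of probes that the array assigns to a locus, among 18417 genes with a single symbol on the array. LPL gave the set its name because it was already known to be lower with selamectin in these data, so its values are a description and carry no test. The other 7 were added for what they do, also with earlier results of these data known.

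MDA-MB-231 is an established human breast cancer line without estrogen receptor, progesterone receptor or HER2 amplification, grown here in medium with fetal bovine serum. The treated group was 3 cultures given selamectin, a veterinary antiparasitic of the avermectin family, at 1 µM for 24 h. The 3 controls are titled untreated, while the protocol text speaks of vehicle, so what they received is not settled. Each of the 6 cultures was hybridised to 1 Affymetrix whole-transcript array, and the design text calls the replicates independent without saying how they were separated. All are cultures of 1 line.

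LPL is secreted by parenchymal cells and cuts triglyceride in chylomicrons and very low density lipoprotein at the endothelial surface, releasing fatty acids for uptake. LMF1 helps it fold in the endoplasmic reticulum, GPIHBP1 carries it across capillaries and holds it there, and ANGPTL4 inactivates it. Inside cells, PNPLA2 (adipose triglyceride lipase), LIPE (hormone-sensitive lipase) and monoacylglycerol lipase release fatty acids from stored triglyceride in turn. Some breast cancer cells make LPL and can take fatty acids from lipoproteins.

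The array medians lay between 7.47 and 7.51 on the log2 scale, and the values of all clusters between 3.73 and 14.92. The first principal component, with 45.8% of the variance, separated the groups, and selamectin array 3 stood apart on the second, with 20.8%. The control means of 8 genes listed here as high in the line ran from 7.64 (SPARC) to 12.67 (VIM) on the log2 scale. SPARC lay close to the array medians, so its value does not bear out that label. The control means of 10 luminal and hormone receptor genes ran from 5.60 (PGR) to 13.71 (KRT8), with ESR1 at 6.97 and ERBB2 at 9.17. Values of different clusters cannot be ranked by abundance, since probes differ in brightness, and no detection calls were used here, so these levels do not settle which genes are expressed. In limma over all 18417 genes, 4.69% passed an adjusted p of 0.05 (2.41% higher, 2.28% lower), and the median gene changed by 0.04 log2 units. In these bulk samples, fewer cells that express a gene and less RNA per cell cannot be told apart.

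LPL was lower in every treated culture. Its log2 values were 11.19, 11.00 and 11.02 on the untreated arrays and 9.98, 9.90 and 9.70 on the selamectin arrays. The groups did not overlap, and the gap between them was several times the range within either group, 0.19 untreated and 0.28 with selamectin. The means were 11.07 ± 0.10 and 9.86 ± 0.14 (SD, n = 3), a log2 change of -1.21 ± 0.10 (SE), or 2.31-fold lower. Leaving out any one array kept the change between -1.27 and -1.13. Over all genes, 9.3% had every selamectin array below every untreated array.

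None of the 7 other members passed the test in limma, against 4.69% of all genes. Of the 7, only VLDLR had an unadjusted p under 0.05, which 19.9% of all genes had. The median log2 change of the 7 was -0.01.

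**Figure D1:**
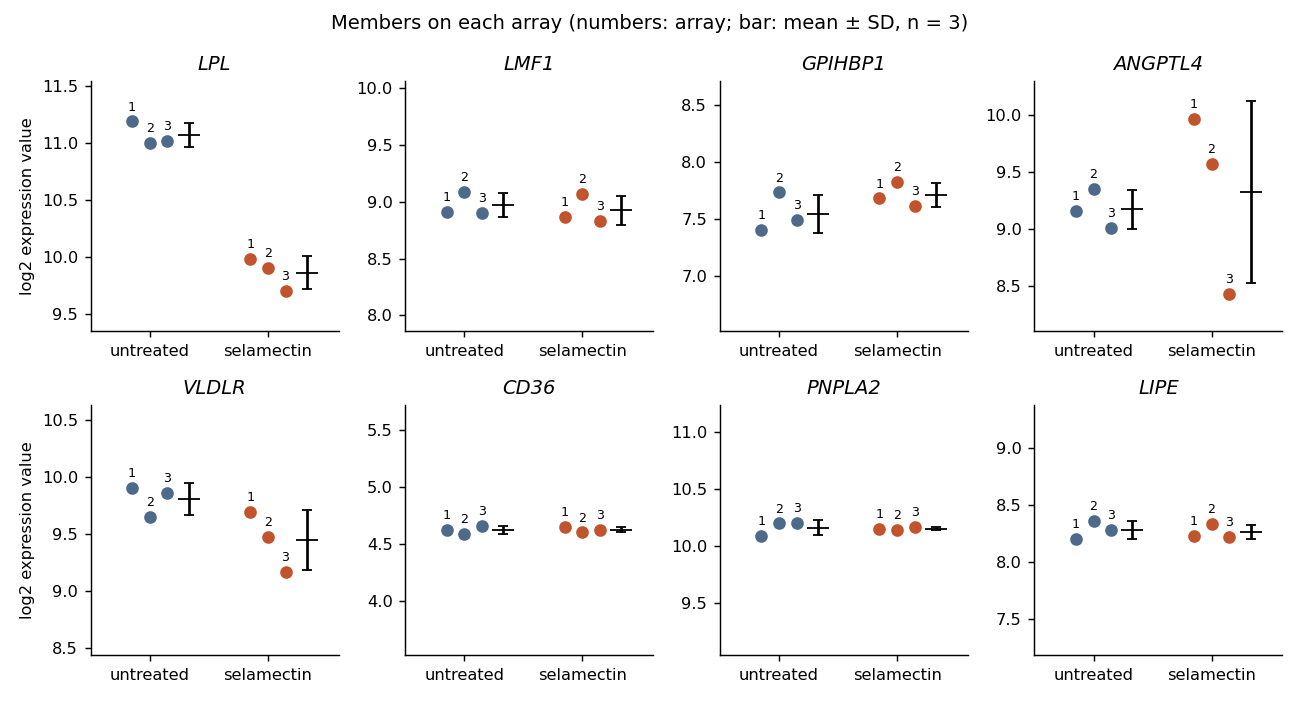
Log2 expression values (y axis, each panel spanning the same height) of the 8 members on 3 untreated (blue) and 3 selamectin (orange) arrays, with array numbers and mean ± SD beside the points. LPL is the member whose groups do not overlap, and ANGPTL4 is spread from 8.43 to 9.97 among the selamectin arrays.

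The genes that mature and anchor the lipase had overlapping groups. LMF1 had log2 values of 8.91, 9.09 and 8.90 untreated and 8.86, 9.07 and 8.83 with selamectin, so the groups overlapped almost entirely. It differed by -0.05 on the log2 scale, and the 95% interval ran from -0.27 to 0.18 (limma adjusted p = 0.84). GPIHBP1 is known as a protein of capillary endothelium. It had 7.40, 7.73 and 7.49 untreated and 7.68, 7.82 and 7.61 with selamectin, with overlapping groups and a log2 change of 0.16 (interval -0.07 to 0.40, adjusted p = 0.43).

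ANGPTL4, the secreted inhibitor of LPL and a target of PPAR and hypoxia-inducible factors, split the treated cultures. Its log2 values were 9.16, 9.35 and 9.01 untreated and 9.97, 9.57 and 8.43 with selamectin. Selamectin arrays 1 and 2 lay above all untreated arrays and selamectin array 3 below all of them. The means were 9.17 ± 0.17 and 9.32 ± 0.80 (SD, n = 3). The log2 change of 0.15 had a wide interval, from -0.50 to 0.80 (limma adjusted p = 0.81). Without selamectin array 3 it was 0.60 (limma adjusted p = 0.026). It was -0.17 without selamectin array 1 (adjusted p = 0.78) and 0.028 without selamectin array 2 (adjusted p = 0.98). Selamectin array 3 held the lowest ANGPTL4 value, so the pass without that array is not taken as a rise.

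PLIN2 and HILPDA, a pair of lipid droplet genes picked from the pathway lists after their values were seen, had the same order of arrays. PLIN2, the perilipin found on droplets in most cells, had log2 values of 9.72, 9.32 and 9.63 untreated and 11.09, 10.63 and 9.27 with selamectin. Its log2 change was 0.78 (interval 0.02 to 1.54, limma adjusted p = 0.24). The change was 1.31 without selamectin array 3, 0.40 without selamectin array 1 and 0.63 without selamectin array 2. PLIN2 was picked with its low value on selamectin array 3 known, so the change without that array carries no test here. HILPDA, a hypoxia-induced droplet protein that inhibits adipose triglyceride lipase, had 9.76, 9.51 and 9.48 untreated and 10.07, 9.84 and 9.16 with selamectin. Its log2 change was 0.11 (limma adjusted p = 0.78); it was 0.37 without selamectin array 3 and -0.08 without selamectin array 1. An order with selamectin arrays 1 and 2 above and selamectin array 3 below all untreated arrays was found in 3.14% of all genes. Of the 146 members and pathway genes measured, 8 had it (5.48%): ABHD6, ANGPTL4, DECR1, FABP3, HILPDA, HADHB, PLA1A and PLIN2. Of 22 other genes of lipolysis and lipid droplets, ABHD6, HILPDA and PLIN2 had it and 19 did not, among them PLIN1, PLIN3, CIDEC and G0S2. The order was taken from ANGPTL4, PLIN2 and HILPDA, which are themselves counted. These shares therefore cannot be set against that of all genes. What set selamectin array 3 apart was not tested.

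VLDLR, the receptor that binds very low density lipoprotein together with LPL, had a lower treated mean without passing. Its log2 values were 9.91, 9.65 and 9.86 untreated and 9.69, 9.48 and 9.17 with selamectin. The groups overlapped by 1 array, since selamectin array 1 lay above untreated array 2. The means were 9.80 ± 0.14 and 9.44 ± 0.26 (SD, n = 3), a log2 change of -0.36 (interval -0.65 to -0.07, limma adjusted p = 0.16). The change stayed negative whichever array was left out, between -0.48 and -0.22. It passed only with array weights (adjusted p = 0.035), a fit in which untreated array 3 carries a weight of 5.11 and no other array more than 1.22. The antisense gene VLDLR-AS1, on its own cluster, had 6.75, 7.20 and 7.01 untreated and 6.97, 6.95 and 6.99 with selamectin (limma adjusted p = 0.95), within the untreated range.

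Promoter windows are shown for ANGPTL4 and PLIN2, which shared an order of arrays, and for VLDLR, the other member whose mean moved most after LPL. Each is the 250 bases before the RefSeq start on GRCh38.p14, on the strand of the gene. Capitals mark ACGTG and GCGTG on either strand (CACGT and CACGC on the other), the short cores that hypoxia-inducible factors are known to contact. The motif was chosen after the values were seen.
ANGPTL4, chr19:8363905-8364154, plus strand: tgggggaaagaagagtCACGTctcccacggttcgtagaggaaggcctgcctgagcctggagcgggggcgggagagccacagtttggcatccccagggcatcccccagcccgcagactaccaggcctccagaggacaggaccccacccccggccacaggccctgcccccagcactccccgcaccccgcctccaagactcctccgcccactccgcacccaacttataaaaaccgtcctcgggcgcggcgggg
PLIN2, chr9:19127493-19127742, minus strand: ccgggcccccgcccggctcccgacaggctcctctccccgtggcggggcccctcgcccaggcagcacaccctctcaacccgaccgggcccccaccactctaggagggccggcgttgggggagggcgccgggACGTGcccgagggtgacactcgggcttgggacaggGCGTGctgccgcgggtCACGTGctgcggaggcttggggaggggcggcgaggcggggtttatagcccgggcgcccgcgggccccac
VLDLR, chr9:2621537-2621786, plus strand: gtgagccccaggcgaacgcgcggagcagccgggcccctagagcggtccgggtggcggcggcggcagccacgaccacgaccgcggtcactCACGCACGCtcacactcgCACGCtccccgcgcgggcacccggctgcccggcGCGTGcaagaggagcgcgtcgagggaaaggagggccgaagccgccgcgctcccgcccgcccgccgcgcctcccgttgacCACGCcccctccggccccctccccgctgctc

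ANGPTL4 held 1 match, whose first base lies 234 bases before the start. PLIN2 held 4, at 120, 85, 69 and 68 bases, of which the last pair overlap in 1 palindrome. VLDLR held 5, all GCGTG, between 161 and 31 bases before the start. Over all 35116 windows of this length in the RefSeq table, 18.5% held ACGTG, 32.2% held GCGTG and 43.2% held either. Windows were found for 6 of the 8 members, 13 windows in all because LMF1, LIPE and CD36 have several starts, and 5 of the 13 held a match. The LMF1 windows overlap and hold the same match, so 1 site is counted in both. LPL, GPIHBP1 and HILPDA had no window to show. These letters are a description of the windows and not evidence of binding.

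CD36, a scavenger receptor and fatty acid transporter, had log2 values of 4.62, 4.59 and 4.66 untreated and 4.65, 4.60 and 4.62 with selamectin. All 6 lay near the low end of the table, so a change could be compressed there. Its log2 change was 0.0015 (interval -0.10 to 0.11, limma adjusted p = 0.99).

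The intracellular triglyceride lipases varied little between arrays. PNPLA2 had log2 values of 10.08, 10.20 and 10.20 untreated and 10.15, 10.14 and 10.17 with selamectin, and all treated values fell inside the untreated range. Its log2 change was -0.01 (interval -0.19 to 0.18, limma adjusted p = 0.97). LIPE had 8.20, 8.36 and 8.28 untreated and 8.23, 8.33 and 8.22 with selamectin, again inside the untreated range, with a change of -0.02 (interval -0.22 to 0.18, adjusted p = 0.93). ABHD5, the coactivator of PNPLA2, had 9.79, 9.80 and 9.93 untreated and 10.04, 10.29 and 10.14 with selamectin, without overlap and without passing (0.31, adjusted p = 0.092). G0S2, its inhibitor, stood at 0.05 (adjusted p = 0.78) and was named after its value was seen.

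**Figure D2:**
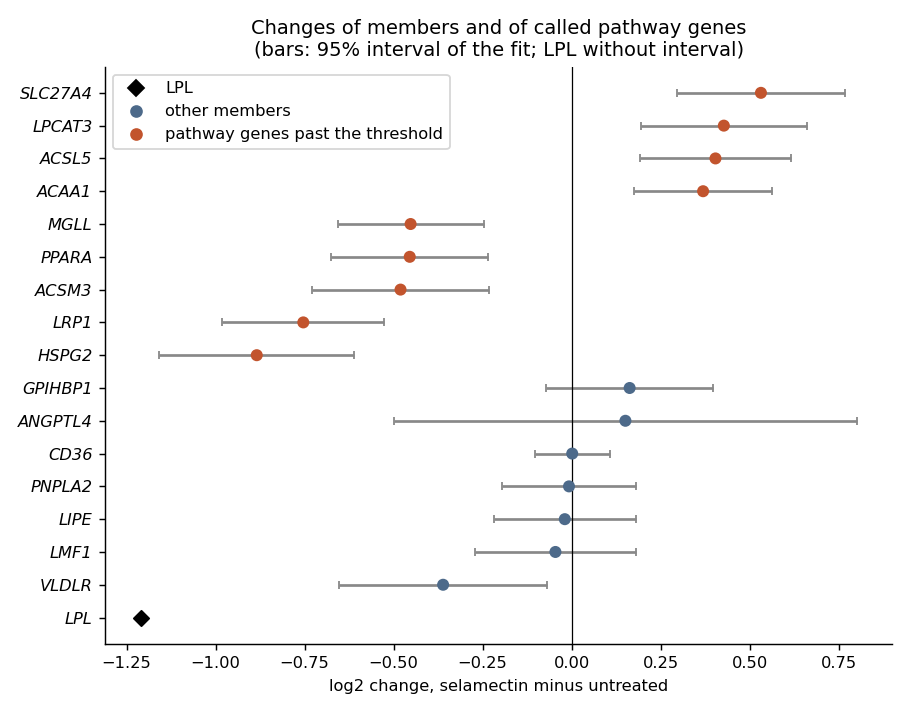
Log2 change (x axis, selamectin minus untreated) of LPL (diamond, shown without an interval), the other 7 members (blue) and the 9 pathway genes past the threshold (orange), with 95% intervals of the fit. The intervals of 6 blue members include 0, and that of VLDLR runs from -0.65 to -0.07 without adjustment for the number of genes.

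Beyond the members, 7 lists of genes of triglyceride handling held 156 other genes, of which 138 were measured; lists share genes. Of the 138, 4 rose and 5 fell in limma, 6.52% against 4.69% of all genes, and their median log2 change was 0.03 against 0.04. An unadjusted p under 0.05 was found in 38 (27.5%) and in 19.9% of all genes, and counts at this level are given for each list. Groups did not overlap in 29.7% of them and in 25.3% of all genes. The counts ran from 0 to 5 rises and from 2 to 6 falls as each array was left out. With untreated array 1 removed they were 0 and 3, with untreated array 3 removed 1 and 2, with selamectin array 1 removed 1 and 6, and with selamectin array 2 removed 0 and 3. With all transcript clusters in the fit, HSPG2 and LRP1 kept their calls and the other 7 lost them. Of the genes without a call named for these lists, AGPAT4 and LIPH passed in 6 of the other settings, ABCA1 in 5, CRAT in 4, LRP5, LSR, UCP2, PPARG and PLIN2 in 2, and APOE, ABHD5 and ECI1 in 1. Array weights were among those settings for each of these genes. PPARG and PLIN2 were picked after their values were seen, so their passes carry no test here.

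The largest of these falls were in genes of the cell surface and matrix. HSPG2 encodes perlecan, a heparan sulfate proteoglycan of basement membrane, the class of molecule that tethers LPL to cells. It had log2 values of 10.43, 10.29 and 10.49 untreated and 9.38, 9.37 and 9.80 with selamectin, a fall of 1.85-fold (log2 change -0.88 ± 0.12 SE, limma adjusted p = 0.0050). LRP1 encodes a large endocytic receptor of the low density lipoprotein receptor family that takes up remnant particles and binds LPL. It had 10.07, 9.94 and 10.17 untreated and 9.46, 9.20 and 9.26 with selamectin, 1.69-fold lower (log2 change -0.75 ± 0.10 SE, adjusted p = 0.0047). Both kept their call in all 16 other settings, with adjusted p up to 0.044 and 0.043. LRP5, a family member that serves Wnt signalling, stood at -0.38 (adjusted p = 0.076), and passed without selamectin array 3 (-0.50, adjusted p = 0.0088). Leaving out any other single array gave no pass for LRP5 (adjusted p up to 0.23).

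In the list of LPL maturation, anchoring and inhibition, HSPG2 was the only call among 14 other genes, and the only one with an unadjusted p under 0.05. The other 13 lay between -0.03 and 0.18, among them APOE, a ligand of remnant receptors (0.18, limma adjusted p = 0.33), and the proteoglycan SDC1 (0.12, adjusted p = 0.50). The list's median was 0.05.

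Among 13 other lipases none passed in limma, and 1 had an unadjusted p under 0.05. That was LIPH, a membrane lipase that makes lysophosphatidic acid, with log2 values of 10.56, 10.27 and 10.48 untreated and 10.14, 10.03 and 9.57 with selamectin. The groups did not overlap, and the log2 change was -0.53 (limma adjusted p = 0.061). It passed without selamectin array 1 (-0.64, adjusted p = 0.040), after a second quantile normalization (0.042), with either filter on dim genes (0.046 with the stricter), with robust eBayes (0.047) and with array weights (0.0083). Without untreated array 1, LIPH had a limma adjusted p of 0.22. LIPJ came next at 0.12 (adjusted p = 0.26). The list's median was 0.05.

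Of 20 other genes of lipoprotein and fatty acid uptake, LRP1 fell and SLC27A4 rose, 9 had an unadjusted p under 0.05 (6 higher, 3 lower), and the median log2 change was 0.01. SLC27A4, a fatty acid transport protein with acyl-CoA synthetase activity, had 9.86, 10.12 and 10.18 untreated and 10.49, 10.57 and 10.71 with selamectin (1.45-fold higher, limma adjusted p = 0.021). It lost its call without untreated array 1 or selamectin array 2 (adjusted p up to 0.087). LSR, the lipolysis-stimulated lipoprotein receptor, stood at 0.32 with groups that did not overlap (adjusted p = 0.079).

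Of 22 other genes of lipolysis and lipid droplets, 1 fell and none rose in limma, with a median of 0.09 and an unadjusted p under 0.05 in 5 (3 higher, 2 lower). The fall was in MGLL, the monoacylglycerol lipase that takes the last step of triglyceride breakdown. Its log2 values were 8.08, 8.29 and 8.21 untreated and 7.82, 7.69 and 7.72 with selamectin (1.37-fold lower, limma adjusted p = 0.023). The call was lost without untreated array 3 or selamectin array 2 (adjusted p up to 0.10). Of the 3 enzymes that act in turn on stored triglyceride, MGLL was thus the one past the threshold, and whether its change differed from those of PNPLA2 and LIPE was not tested. DDHD2, a phospholipase and triglyceride hydrolase of neurons, stood at -0.30 (adjusted p = 0.20).

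None of 18 genes of triglyceride synthesis passed in limma (median -0.0027), and 3 had an unadjusted p under 0.05. AGPAT4, an acyltransferase, came closest, with 7.34, 7.21 and 7.53 untreated and 7.05, 6.97 and 6.91 with selamectin (-0.38, limma adjusted p = 0.051). It passed without untreated array 2 (-0.46, adjusted p = 0.035), and also after a second quantile normalization (0.039), with median-centred arrays (0.042), with the milder filter on dim genes (0.041), with robust eBayes (0.042) and with array weights (0.0027). Without untreated array 3 the AGPAT4 change was -0.30 (limma adjusted p = 0.20). TMEM68, another acyltransferase, stood at -0.21 (adjusted p = 0.19).

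Fatty acid activation and oxidation held calls in both directions. Of 29 genes, ACSL5, an acyl-CoA synthetase, rose 1.32-fold (limma adjusted p = 0.039) and ACAA1, the peroxisomal thiolase, 1.29-fold (0.040), while ACSM3, a medium-chain acyl-CoA synthetase, was 1.40-fold lower (0.038). The median was -0.04, and 10 had an unadjusted p under 0.05 (4 higher, 6 lower). These calls were fragile. ACAA1 lost its call without any one of the 6 arrays (adjusted p from 0.054 to 0.14). ACSL5 lost it without untreated array 1 or 3 or selamectin array 1 or 2 (up to 0.14), and ACSM3 without selamectin array 1 or 3 or any one of the untreated arrays (up to 0.086). ACSL5 and ACAA1 also lost it with the replicate number as a block, and ACSM3 without the eBayes trend. CRAT, the carnitine acetyltransferase, stood at -0.53 (adjusted p = 0.063; 0.048 with median-centred arrays, 0.046 with the stricter filter on dim genes, 0.047 with robust eBayes and 0.010 with array weights) and ECI1, an enoyl-CoA isomerase, at -0.30 (0.081). Relative to the untreated mean, the list's mean stood at -0.19 on selamectin array 3, at 0.00021 on selamectin array 1 and at 0.027 on selamectin array 2.

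Of 26 other genes of the PPAR, RXR and LXR list, 1 fell and 1 rose in limma, with a median of 0.05 and an unadjusted p under 0.05 in 11 (7 higher, 4 lower). PPARA, the receptor that drives fatty acid oxidation genes, had 9.06, 9.29 and 9.18 untreated and 8.83, 8.68 and 8.66 with selamectin, 1.37-fold lower (limma adjusted p = 0.030). LPCAT3, an LXR target that puts polyunsaturated chains into phospholipid, had 11.04, 11.36 and 11.25 untreated and 11.65, 11.79 and 11.49 with selamectin, 1.34-fold higher (adjusted p = 0.046). PPARA lost its call without selamectin array 2 or any one untreated array (up to 0.12). LPCAT3 lost it without untreated array 1 or 3 or selamectin array 1 or 2 (up to 0.19). Both lost it with the replicate block, and LPCAT3 also after a second quantile normalization and without the eBayes trend.

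PPARG, the receptor known to drive LPL transcription in adipocytes, was named after its values were seen. It had 10.62, 10.61 and 10.60 untreated and 10.47, 10.18 and 9.97 with selamectin. The groups did not overlap, with a log2 change of -0.40 (interval -0.66 to -0.14, limma adjusted p = 0.084). Leaving out each array gave limma adjusted p from 0.023 (-0.54, without selamectin array 1) to 0.23. Selamectin array 1 held the treated value nearest the untreated ones, so the pass without that array is not taken as a fall. ABCA1, the cholesterol exporter and LXR target, stood at -0.50 (limma adjusted p = 0.053). It passed after a second quantile normalization (0.042), with median-centred arrays (0.041), with the milder filter on dim genes (0.042), with robust eBayes (0.039) and with array weights (0.0036), but did not pass when any one array was left out. UCP2, a mitochondrial carrier, stood at 0.39 (0.072). UCP2 passed without untreated array 2 (0.50, adjusted p = 0.037) but not without selamectin array 2 (0.38, adjusted p = 0.20).

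**Figure D3:**
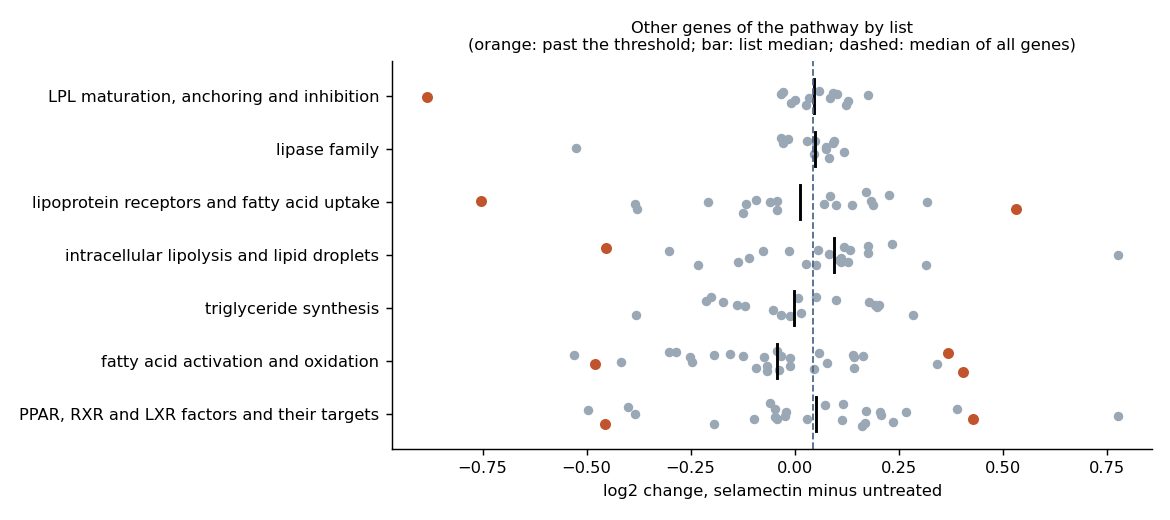
Log2 change (x axis) of the measured genes of 7 pathway lists (rows), members left out; orange points passed the threshold in limma, black bars are list medians and the dashed line is the median of all genes, 0.04. The list medians lie between -0.04 and 0.09, and HSPG2 and LRP1 are the leftmost orange points.

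The gene whose array values ran closest to those of LPL was SLC46A3. Likeness was measured as the root mean square difference between a gene and LPL over the 6 arrays, after each gene's own mean was subtracted. It was chosen on the same values as the fall of LPL, so these genes are a description with no test. SLC46A3, a lysosomal transporter, had log2 values of 9.90, 9.62 and 9.71 untreated and 8.62, 8.50 and 8.31 with selamectin, at a distance of 0.041 log2 units. The next gene lay at 0.13, and the median gene at 0.64.

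The following genes, in order, were HSPA2, an HSP70 chaperone, at 0.13, UNC5A, a netrin receptor, at 0.15, NEDD9, an adhesion scaffold, at 0.16, CTH, a cysteine-making enzyme, at 0.17 and PRICKLE1, a planar polarity protein, at 0.18. HSPG2 lay at 0.28 and LRP1 at 0.25. Ranks after the first are close together, and GCA at 0.19 fell just outside the 6. LPL, SLC46A3, HSPA2 and CTH all had their highest untreated value on array 1 and their lowest treated value on array 3. The closest genes were picked on these same arrays, so this shared order adds no further likeness.

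**Figure D4:**
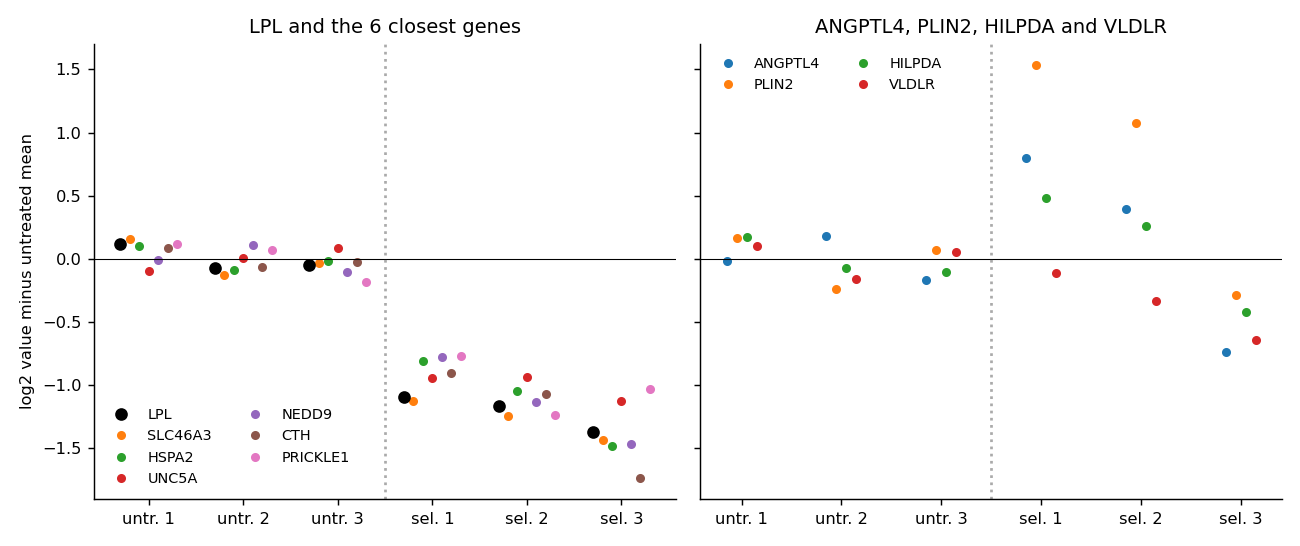
Log2 value minus the untreated mean (y axis) on each array (x axis) for LPL and the 6 closest genes (left) and for ANGPTL4, PLIN2, HILPDA and VLDLR (right); points are offset sideways for legibility. On the left all selamectin values lie between -1.74 and -0.77, while on the right ANGPTL4 runs from 0.80 on selamectin array 1 to -0.74 on selamectin array 3.

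Markers of other cell types that make or hold LPL showed no call in limma, and their counts at an unadjusted p under 0.05 are to be read against 19.9% of all genes. Of 13 adipocyte markers, 3 had an unadjusted p under 0.05, all higher, with ADIPOQ at log2 means of 6.22 untreated and 6.32 with selamectin. The mean over that list ranged from 7.02 to 7.20 untreated and from 7.16 to 7.25 with selamectin. Of 13 macrophage markers 0 had an unadjusted p under 0.05, and the list mean ranged from 6.44 to 6.56 and from 6.52 to 6.53. Of 11 muscle markers 1 did, lower, with list means from 7.47 to 7.67 and from 7.59 to 7.65. Of 12 endothelial markers 2 did, 1 in each direction, with list means from 6.87 to 7.04 and from 6.94 to 7.01.

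The endothelial marker that was lower was CDH5, the vascular cadherin, at 9.52 ± 0.17 untreated and 8.93 ± 0.36 with selamectin (SD, n = 3; limma adjusted p = 0.067). CDH5 was picked after its values were seen. Leaving out each array gave limma adjusted p from 0.016 (-0.74, without selamectin array 3) to 0.20. Untreated means of single endothelial markers ran from 4.96 (EMCN) to 9.52 (CDH5), and of genes listed as adipocyte markers from 4.50 (FABP4) to 11.06 (ADIPOR2). Those of macrophage markers ran from 4.75 (MSR1) to 10.07 (CD68), and of muscle markers from 5.55 (TTN) to 9.58 (MB). These levels alone cannot show a cell type to be present or absent, and all samples were cultures of 1 line. Of 8 genes listed here as high in the line, CD44 rose (0.42, adjusted p = 0.020) and SPARC fell (-0.45, adjusted p = 0.033), and 5 had an unadjusted p under 0.05 (4 higher, 1 lower). Of 10 luminal and hormone receptor genes none passed in limma, and 3 had an unadjusted p under 0.05, all lower. Both counts at this level are to be read against 19.9% of all genes. CD44 lost its call without untreated array 1 or 3 or selamectin array 1 or 2 (up to 0.087), and SPARC without selamectin array 2 or 3 or any one of the untreated arrays (up to 0.13). SPARC also lost it with the replicate block. The part of these genes in the LPL difference was not tested.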

How the data were processed

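The authors deposited 1 log2 expression value per transcript cluster and array, 33297 clusters on 6 arrays. Expression Console and Transcriptome Analysis Console from Affymetrix and the RMA method are listed without version or setting, per the submitters' processing notes. The log2 base is read from the range of the deposited values. RMA as commonly run makes array distributions alike and compresses changes of dim genes. For the annotation's genome build, none is given in the sources used here.

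Gene symbols came from the platform's annotation table, which gave 1 symbol for 19460 clusters. Of these, 19429 were matched to RefSeq by Entrez number. The cluster with the highest mean stood for a gene with several, and 18417 genes remained. No filter on dim genes was applied. limma 3.58.1 in R 4.3.3 (lmFit, eBayes with an intensity trend) tested selamectin minus untreated, two-sided; p-values were adjusted by Benjamini-Hochberg over the 18417 genes, and 0.05 was the threshold. The number of arrays limits precision (median SE 0.094). Each p-value sets a difference of means against the spread between these cultures, with a gene's variance drawn toward a trend over all genes. The fit was tested on simulated data.

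The members and lists were chosen with earlier results of these data known. Named genes were the members, called list genes, up to 2 further genes per list by smallest p, and the 6 genes closest to LPL; exceptions are marked. Alternatives covered normalization, dim genes, eBayes settings, array weights, clusters, a replicate block, each array left out, and thresholds. Scanner files, detection calls and scan dates were not used here, so no batch was tested.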

Additional observations from a re-analysis of the deposited data

How the results depend on the processing

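The log2 change of LPL stayed between -1.27 and -1.13 as each array was left out. It was -1.23 after a second quantile normalization, -1.21 with median-centred arrays and -1.14 with array weights. The other settings could not move it, because LPL has 1 cluster and its difference of means is the same in those fits. The counts of calls moved more. Over all genes, 444 rose and 420 fell; leaving out each array gave 76 to 685 rises and 100 to 464 falls, with 76 and 100 once untreated array 1 was removed, 140 and 114 for untreated array 3, 96 and 138 for selamectin array 2, and 259 and 685 rises for selamectin arrays 1 and 3 in turn. Array weights gave 1822 and 1464, all 33297 clusters in the fit 104 and 145, an adjusted p under 0.1 gave 879 and 723, and one under 0.01 gave 77 and 96. Among the members other than LPL, 1 passed as higher without selamectin array 3, against 0 without any other array. It was ANGPTL4, whose lowest value was on that array, so the pass is not taken as a rise. None of these members fell whichever array was left out, and 1 fell with array weights (VLDLR). Of the pathway genes, 4 rose and 5 fell; leaving out each array gave 0 to 5 rises and 2 to 6 falls. Falls numbered 8 after a second quantile normalization, 8 with median-centred arrays and 9 with robust eBayes. Over all genes, falls in these settings numbered 525, 442 and 471 in turn. Array weights gave 14 rises and 18 falls, all clusters 0 and 2, an adjusted p under 0.1 gave 7 and 14, and one under 0.01 gave 0 and 2.

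With the replicate number as a block, pathway rises dropped to 1 while falls were 4, and over all genes 307 rose and 343 fell. The labels give a shared number only, and the deviations of same-numbered arrays from their group means correlated across genes at -0.01, 0.24 and -0.14, so the numbers were not taken as pairs.

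Changes near 0 took the other sign in some settings, and none of these opposite-signed changes passed. LMF1 stood at 0.021 with array weights, and CD36 at -0.020 after a second quantile normalization and at -0.024 with array weights. Leaving out each array gave a range from -0.12 to 0.015 for LMF1, from -0.016 to 0.019 for CD36, from -0.046 to 0.012 for PNPLA2, from -0.058 to 0.020 for LIPE, from -0.17 to 0.60 for ANGPTL4, from -0.078 to 0.37 for HILPDA and from -0.14 to 0.091 for VLDLR-AS1. Array weights rest largely on untreated array 3. The filters on dim genes removed CD36, and the stricter one GPIHBP1. Among the called pathway genes, both filters removed ACSM3, and the stricter one also MGLL and ACSL5. Signal over background could not be judged without detection calls.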
